A study of Mus musculus with 9 samples.

Results

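Acute-phase proteins are secreted in quantity during inflammation, and 10 of their genes were examined here in mouse colon: Saa1, Saa2, Saa3, Lcn2, Hp, Lrg1, Orm1, C3, Ptx3 and Cp. They were chosen by name, as all probes whose platform gene symbol is on that list. The platform's table named 9 of the 26423 probes for them, which cover 8 of the 10 genes: Cp had 2 probes, 7 genes had 1 each, and no probe carried the symbol Saa1 or Saa2, so those genes are not described. The 8 genes are among 17742 that the platform names. RNA came from whole colon of BALB/c females, and there were 3 arrays in each of 3 groups. Mock mice were untreated. Sham mice had 1 intraperitoneal injection of the carcinogen azoxymethane (AOM, 12.5 mg/kg, day 1). Dextran sodium sulfate (DSS), an agent that damages the intestinal epithelium, followed in the drinking water at 2.5%, starting on day 8 and lasting 5 days, after which water was given for 16 days, and this cycle was run 3 more times. Vanillin mice went through the same AOM/DSS course and were also given 100 mg/kg oral vanillin over 91 days. The labels do not say which stretch of colon was taken, whether it held tumour, or whether each array is a different mouse. A p-value here therefore reflects array-to-array spread alone, and that spread could be purely technical.

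The acute-phase response is the change in secreted proteins that follows infection or injury. Interleukin-6 and its relatives act through STAT3, and interleukin-1 and tumour necrosis factor act through NF-κB and C/EBP factors, to switch these genes on. The liver is the classical source, but gut epithelium, fat cells, skin and white blood cells make several of the proteins themselves, and lipocalin-2 in stool is a common readout of gut inflammation.

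Intensity is the deposited brightness of a probe on a linear scale, and a change is a difference in log2(intensity + 16) between groups of 3 arrays. Folds and fractions of a group's level are the same change unlogged, so they refer to intensity + 16. A probe is "called", and is said to rise or fall, when limma's test over all 26423 probes gave a Benjamini-Hochberg adjusted p under 0.05. In Sham minus Mock 59.7% of all probes were called, 36.5% higher and 23.2% lower. In Vanillin minus Sham 47.9% were called, 15.7% higher and 32.2% lower, and in Vanillin minus Mock 50.7%, 24.5% higher and 26.2% lower. With so many probes called, a call by itself sets an acute-phase gene apart from few others, so sizes and ranks are given as well. The counts called in the gene lists below are likewise to be read beside these shares. Arrays of one group correlated at 0.995 to 0.998 over all probes.

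All 9 acute-phase probes were called in all 3 comparisons. In Sham minus Mock 7 probes were higher and 2 lower, in Vanillin minus Sham 4 were higher and 5 lower, and in Vanillin minus Mock all 9 were higher. The arrays of the groups compared did not overlap for any of the 9 probes in any comparison, whereas over all probes this held for 67.1%, 56.3% and 60.4% in that order. The median change of the 9 probes was 1.04 in Sham minus Mock, where that of all probes was 0.10. It was -0.23 in Vanillin minus Sham (all probes -0.09) and 0.88 in Vanillin minus Mock (all probes -0.002). The 3 comparisons share arrays, so their values are set side by side below and are not independent of each other. By the order of the groups, the genes fall into 3 sets: Lcn2, C3, Ptx3 and Cp were highest in Sham, Saa3 and Lrg1 were highest in Vanillin and lowest in Mock, and Orm1 and Hp were lowest in Sham.

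**Figure D1:**
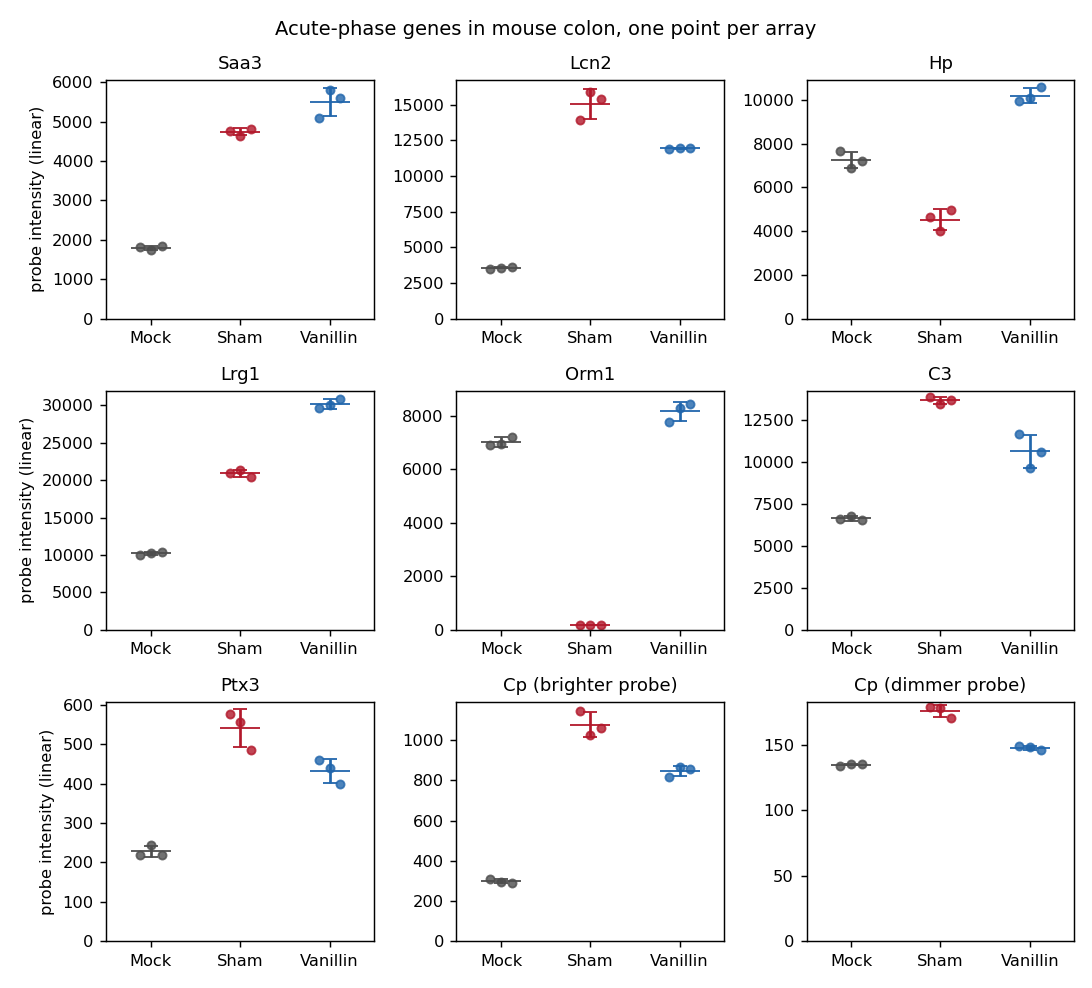
Probe intensity on a linear axis from 0 for each of the 9 acute-phase probes, with 1 point per array, a horizontal line at the mean of each group of 3 and bars of 1 SD. Lcn2, C3, Ptx3 and both Cp probes peak in Sham, Saa3 and Lrg1 climb from Mock to Sham to Vanillin, and Orm1 drops to a mean of 172 in Sham between 7013 in Mock and 8158 in Vanillin.

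RefSeq's table of the mouse build GRCm38.p6 held promoters for 8 of the 10 genes, Hp and Orm1 being without an entry. Of these, 4 are printed, each as the 250 bases before an annotated start on the gene's own strand. They were chosen because they pair genes that rose in Sham and then parted: Saa3 and Lrg1 were higher still with vanillin, and Lcn2 and C3 were lower. The start used for Saa3 lies inside the gene's span (chr7:46711998-46719615), so its window is not upstream of the whole gene. Capitals mark matches to 3 sets of letters: TTCNNNGAA for STAT factors, TTGCNNAA for C/EBP factors and, for NF-κB, GGG followed after any 3 bases by TTCC. They were searched on both strands in windows that also take in the first 50 bases from each start.
Saa3, chr7:46715677-46715926, minus strand: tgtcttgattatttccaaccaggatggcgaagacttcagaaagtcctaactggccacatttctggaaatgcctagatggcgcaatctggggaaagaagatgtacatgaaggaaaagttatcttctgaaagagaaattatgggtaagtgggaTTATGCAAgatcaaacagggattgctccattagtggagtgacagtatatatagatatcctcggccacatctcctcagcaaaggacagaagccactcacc
Lrg1, chr17:56121947-56122196, minus strand: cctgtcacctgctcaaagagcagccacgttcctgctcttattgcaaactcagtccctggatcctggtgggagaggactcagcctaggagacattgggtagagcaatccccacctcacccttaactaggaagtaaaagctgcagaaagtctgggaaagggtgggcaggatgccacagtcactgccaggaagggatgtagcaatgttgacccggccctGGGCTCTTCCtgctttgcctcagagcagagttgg
Lcn2, chr2:32387740-32387989, minus strand: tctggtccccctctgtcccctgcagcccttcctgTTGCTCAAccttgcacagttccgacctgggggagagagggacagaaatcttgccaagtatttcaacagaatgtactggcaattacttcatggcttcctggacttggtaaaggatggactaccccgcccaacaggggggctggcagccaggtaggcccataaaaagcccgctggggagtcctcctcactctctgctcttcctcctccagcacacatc
C3, chr17:57228137-57228386, minus strand: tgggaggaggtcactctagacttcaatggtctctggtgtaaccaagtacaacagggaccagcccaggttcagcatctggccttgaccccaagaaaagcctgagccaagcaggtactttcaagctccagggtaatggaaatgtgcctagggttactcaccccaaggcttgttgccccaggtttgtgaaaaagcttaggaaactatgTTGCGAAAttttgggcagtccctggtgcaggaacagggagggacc

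Distances are counted from the annotated start used for each window. The C/EBP letters stood 99 bases before it in Saa3, 216 in Lcn2 and 45 in C3, and the NF-κB letters 34 bases before it in Lrg1. Ptx3 held the C/EBP letters as TTGTGCAA 57 bases before its start, and the later of the 2 Cp windows held them as TTTTGCAA at 70 bases. Both Cp starts, like that of Saa3, lie inside the gene's span, which for Cp begins at chr3:19956933. Of the 7 windows of the 6 genes that rose in Sham, 5 held the C/EBP letters, 1 the NF-κB letters and 0 the STAT letters, and no window held more than 1 match, so no matches overlapped. Among all 32851 windows of 300 bases in the table, 10.8% held the C/EBP letters, 5.56% the NF-κB letters and 8.3% the STAT letters. A match describes the letters only. The pair that parted from Lcn2 and C3 under vanillin did not share a match, since Saa3 held the C/EBP letters and Lrg1 the NF-κB letters.

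Lcn2 encodes lipocalin-2, an antimicrobial protein of epithelium and neutrophils that binds bacterial iron carriers. Its intensity was 3516.5, 3567 and 3610 in the 3 Mock arrays, 13896, 15927 and 15391.5 in the Sham arrays and 11880, 11979 and 11950 in the Vanillin arrays. Every Sham array lay above every Vanillin array, and every Vanillin array far above Mock. Lcn2 rose by 2.07 in Sham minus Mock (SE 0.056, adjusted p = 2.5e-09), a 4.21-fold increase and the 283rd largest of the 26423 probes. With vanillin it fell by 0.33 against Sham (SE 0.056, adjusted p = 0.0012, 95% interval -0.46 to -0.21), to 0.794 of the Sham level, and remained 1.74 above Mock (SE 0.056, adjusted p = 2.4e-08).

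Complement component C3 is the central protein of the complement cascade and both marks microbes and recruits phagocytes. The Mock arrays read 6586, 6784 and 6535, and the Sham arrays 13835, 13437 and 13683. In Vanillin it was 11627, 9647 and 10588, between the other groups and with a wider spread (SD 990.2, against 131 in Mock and 201.1 in Sham). C3 rose by 1.04 in Sham minus Mock (SE 0.067, adjusted p = 1.0e-06), fell by 0.37 in Vanillin minus Sham (SE 0.067, adjusted p = 0.0019) and was 0.67 above Mock with vanillin (SE 0.067, adjusted p = 3.4e-05).

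Ptx3, a long pentraxin made locally by stromal and myeloid cells that tags microbes for uptake, had a probe of middling brightness, with 52.4% of all probes dimmer. It read 220, 244 and 220 in Mock, 578, 557 and 486 in Sham and 459, 440 and 398 in Vanillin. The lowest Sham array and the highest Vanillin array were close, yet the groups did not overlap. Ptx3 rose by 1.19 in Sham minus Mock (SE 0.082, adjusted p = 1.6e-06). It fell by 0.31 with vanillin against Sham (SE 0.082, adjusted p = 0.013), the least precise of the 4 falls, with a 95% interval from -0.50 to -0.12.

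Cp encodes ceruloplasmin, the copper-carrying ferroxidase that lets iron be loaded onto transferrin. The brighter of its 2 probes read 310, 294 and 290 in Mock, 1148, 1026 and 1061 in Sham and 818, 865 and 855 in Vanillin. It rose by 1.80 in Sham minus Mock (SE 0.056, adjusted p = 6.35e-09), fell by 0.34 in Vanillin minus Sham (SE 0.056, adjusted p = 0.0010) and was 1.46 above Mock with vanillin. The dimmer probe had the same order of groups and much smaller changes. Its arrays lay between 134 and 136 in Mock, between 171 and 179 in Sham and between 147 and 150 in Vanillin, and its change was 0.35 in Sham minus Mock (SE 0.042) and -0.23 in Vanillin minus Sham (SE 0.042). The size of the Cp change thus differs by probe, while its direction does not. In Vanillin minus Mock the dimmer probe was 0.12 higher (SE 0.042, adjusted p = 0.041). That call was lost with the replicate number as a block (adjusted p = 0.0668, or 0.137 with only the 6 arrays compared) and with an intensity trend (0.0969). It was also lost without Mock replicate 1 (0.0979), 2 (0.089) or 3 (0.1) and without Vanillin replicate 1 (0.0764), 2 (0.103) or 3 (0.0612).

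Saa3 encodes serum amyloid A3, the form of this lipid-carrying, white-cell-attracting family made mainly outside the liver. Its intensity was 1814, 1745 and 1850 in Mock, 4768, 4649 and 4827 in Sham and 5097, 5799 and 5599 in Vanillin. The Vanillin arrays all lay above the Sham arrays, by a small margin for the lowest. Saa3 rose by 1.39 in Sham minus Mock (SE 0.058, adjusted p = 4.7e-08) and by 0.21 more in Vanillin minus Sham (SE 0.058, adjusted p = 0.016). This last call was lost without Vanillin replicate 2 (0.17, adjusted p = 0.0619) and with the replicate number as a block over the 6 arrays compared (0.21, adjusted p = 0.0563). Vanillin against Mock gave 1.60 (SE 0.058, adjusted p = 4.6e-08).

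Lrg1 encodes leucine-rich α-2 glycoprotein 1, which is made by epithelium, endothelium and neutrophils and modulates TGF-β signalling in vessels. It read 9941, 10208 and 10441 in Mock, 20992, 21305 and 20442 in Sham and 29594, 29995 and 30889 in Vanillin. The groups were well separated, with Vanillin highest. Lrg1 rose by 1.04 in Sham minus Mock (SE 0.045, adjusted p = 6.2e-08) and by a further 0.53 in Vanillin minus Sham (SE 0.045, adjusted p = 1.9e-05, 95% interval 0.43 to 0.63). Its change in Vanillin minus Mock was 1.56 (SE 0.045, adjusted p = 1.1e-08), the 396th largest of all probes.

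Orm1 and Hp were lowest in Sham and, like the other genes, higher in Vanillin than in Mock. Orm1 encodes orosomucoid 1, a heavily glycosylated plasma protein that binds drugs and dampens immune cells. The Mock arrays read 6889, 6933 and 7218, against 179, 177 and 160.5 in Sham, and then 7763, 8274 and 8436 with vanillin. Every Sham array was at a small fraction of every other array. Orm1 fell by 5.22 in Sham minus Mock (SE 0.058, adjusted p = 6.5e-12), to 0.0268 of the Mock level, the 179th lowest change of the 26423 probes. It rose by 5.44 in Vanillin minus Sham (SE 0.058, adjusted p = 1.2e-11), which is 43.4-fold and the 76th largest change. The 2 end points were near each other: Vanillin exceeded Mock by 0.22 (SE 0.058, adjusted p = 0.012).

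Hp encodes haptoglobin, which captures free haemoglobin and passes it to the macrophage receptor CD163. It read 7646, 6886 and 7208 in Mock, 4627, 3993 and 4967 in Sham and 9942, 10066 and 10593 in Vanillin. Sham was lowest and Vanillin highest, with no overlap. Hp fell by 0.68 in Sham minus Mock (SE 0.082, adjusted p = 7.8e-05), rose by 1.17 in Vanillin minus Sham (SE 0.082, adjusted p = 5.2e-06) and was 0.49 above Mock with vanillin (SE 0.082, adjusted p = 0.00088). The mean intensity of Cd163 itself was 848 in Mock, 107 in Sham and 584 in Vanillin, a change of -2.81 followed by one of 2.29.

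**Figure D2:**
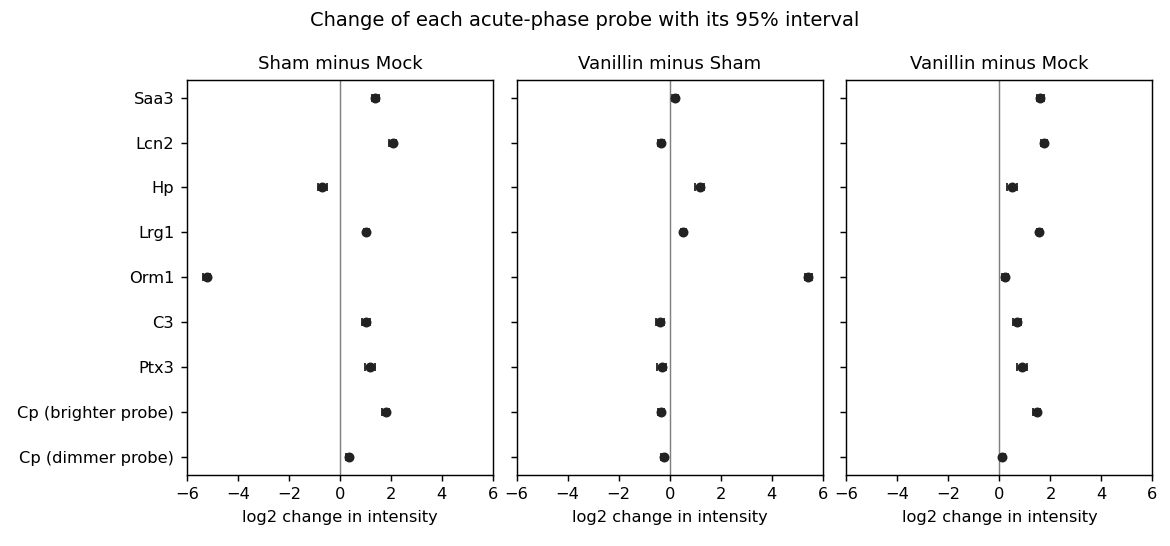
Log2 change in intensity of each acute-phase probe with its 95% interval from limma, with Sham against Mock, Vanillin against Sham and Vanillin against Mock from left to right. Orm1 stands at -5.22 and 5.44 in the first and second panels, where the other probes lie between -0.68 and 2.07 and between -0.37 and 1.17, and all 9 probes are above 0 in the third.

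Squamous epithelium and adipocyte markers were, like Orm1 and Hp, mostly lower in Sham than in either other group. The 15 measured squamous epithelium markers all fell in Sham minus Mock, and 14 rose in Vanillin minus Sham (medians -6.49 and 5.33). Their summed intensity ranged from 583353 to 586916 in Mock, from 26873 to 28014 in Sham and from 331568 to 384322 in Vanillin. In Sham, 6 of the 15 (Krt1, Ivl, Sprr1b, Dsg3, Klk10 and Krtdap) were at a mean intensity under 50, a level below which 19.86% to 20.11% of the probes of an array lie. Of 12 adipocyte markers, 10 fell and 2 rose in Sham minus Mock, and 9 rose and 3 fell in Vanillin minus Sham (medians -3.57 and 3.15). Their sum ranged from 130423 to 132858 in Mock, from 25351 to 26244 in Sham and from 112854 to 116168 in Vanillin. The adipocyte hormone Lep was under 50 in Sham only, and Pparg in every group. Against Mock, Vanillin had 0 squamous markers higher and 10 lower (median -0.78), and 0 adipocyte markers higher and 8 lower (median -0.35). Orm1 and Hp were both higher there, by 0.22 and 0.49. The part of these tissues in the Orm1 and Hp values was not tested. In bulk RNA, fewer cells of a type and less RNA per cell cannot be told apart.

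None of the 13 mature colonocyte or 10 goblet cell markers measured was under 50 in any group. Muc2, the goblet cell mucin, averaged 22811 in Mock, 58140.4 in Sham and 41013 in Vanillin. Hepatocyte markers were listed because the liver is the main source of Orm1 and Hp. The albumin gene Alb averaged 479.7 in Mock, 452 in Sham and 428 in Vanillin and was called in no comparison (-0.09, SE 0.062, in Sham minus Mock), and Apoh, Fgb and Tdo2 were under 50 in each group. Of the 10 hepatocyte markers measured, 4 rose and 2 fell in Sham minus Mock (median 0.15), and 2 rose and 5 fell in Vanillin minus Sham (median -0.42). All probes split similarly in Sham minus Mock, with 36.5% higher and 23.2% lower. The summed intensity of the 10 hepatocyte markers was 5128 to 5267 in Mock, 5164 to 5603 in Sham and 2945 to 3234 in Vanillin. A sum weighs bright markers most, and Ttr, whose intensities are given below, fell by 1.46 in Vanillin minus Mock. In that comparison 1 of the markers rose and 3 fell.

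**Figure D3:**
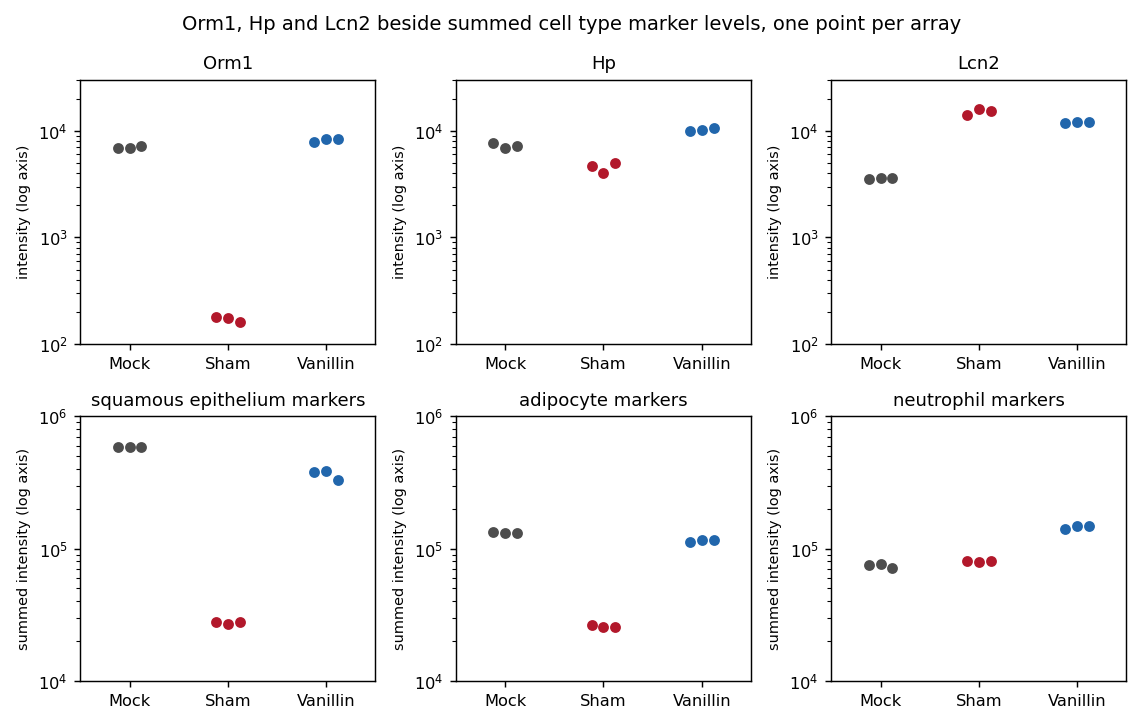
Intensity of Orm1, Hp and Lcn2 (upper row) and summed intensity of squamous epithelium, adipocyte and neutrophil markers (lower row), on log axes with 1 point per array. Orm1, Hp and the squamous and adipocyte sums are lowest in all 3 Sham arrays, and the neutrophil sum is highest in the Vanillin arrays (141352 to 149598).

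Neutrophils carry Lcn2, Lrg1, Hp and Ptx3 in their granules. Of 15 neutrophil markers measured, 11 rose and 4 fell in Sham minus Mock (median 2.11), and 12 rose and 0 fell in Vanillin minus Sham (median 0.69). Clec4d changed by 3.82 and 1.17 and Trem1 by 3.66 and 1.55 in these comparisons, and Il1r2 by -2.08 and 1.78. The summed marker intensity was 72017 to 77121 in Mock, 79407 to 81188 in Sham and 141352 to 149598 in Vanillin, with Mmp8 and Ngp under 50 in Mock. Lrg1, Saa3, Hp and Orm1 were also highest in Vanillin, whereas Lcn2, C3, Ptx3 and Cp were lower there than in Sham. Of 13 macrophage and monocyte markers, 8 rose and 2 fell in Sham minus Mock (median 0.91) and 7 rose and 1 fell in Vanillin minus Sham (median 0.20), with a summed intensity of 42241 to 43177 in Mock, 92408 to 97717 in Sham and 112119 to 117205 in Vanillin. The part of these cells in the acute-phase values was not tested.

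Among the cytokines that induce acute-phase genes and their receptors, 18 were measured: 11 rose and 6 fell in Sham minus Mock (median 0.55), 9 rose and 3 fell in Vanillin minus Sham (median 0.16), and 13 rose and 1 fell in Vanillin minus Mock (median 0.57). Il1b, the interleukin-1β gene, rose by 3.87 in Sham minus Mock and by 1.53 in Vanillin minus Sham (SE 0.074 each). Il6 rose by 3.19 in Sham minus Mock and did not pass with vanillin against Sham, at 0.04 (SE 0.063, 95% interval -0.10 to 0.19). Tnf, likewise, rose by 0.72 and was then not called at 0.06 (SE 0.044). Il11, a relative of interleukin-6, rose by 3.19 and was not called with vanillin at -0.19 (SE 0.146), and Tnfrsf1b, a tumour necrosis factor receptor, rose by 2.61 and fell by 0.61. Some receptors moved the other way: Il6ra, the interleukin-6 receptor, fell by 0.63 and rose by 1.30 with vanillin (a dimmer probe gave 0.22 and -0.10), and Il22ra2, a decoy for interleukin-22, fell by 1.27 and rose by 1.43. The ligand Il1a rose in both comparisons, by 1.15 and 1.27.

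Of 17 signal transducers and transcription factors, 13 rose and 3 fell in Sham minus Mock (median 0.55), and 5 rose and 8 fell in Vanillin minus Sham (median -0.18). In Vanillin minus Mock 10 rose and 3 fell (median 0.27). Socs3, the feedback inhibitor that STAT3 switches on, rose by 2.25 in Sham minus Mock (SE 0.043) and by 0.38 in Vanillin minus Sham (SE 0.043). Stat3 rose by 0.69 and was not called with vanillin at 0.05 (SE 0.054). The C/EBP factors moved in different directions. Cebpb fell by 0.57 and rose by 0.90, Cebpa fell by 2.19 and rose by 1.46, and Cebpd rose by 0.39 and fell by 0.24. Nfkbiz, an NF-κB cofactor that induces Lcn2, rose by 0.46 and by 0.36. Nfkb1 fell by 3.05 and rose by 2.65, while Bcl3, another NF-κB cofactor, rose by 1.59 and fell by 0.40. Foxa1 and Foxa2, epithelial factors also active in liver, rose by 1.47 and 0.74 and fell by 0.66 and 0.88 with vanillin.

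Receptors for acute-phase proteins included more genes that rose than fell, which in Sham minus Mock was also so for all probes (36.5% higher, 23.2% lower). Of 24 measured, 15 rose and 4 fell in Sham minus Mock (median 0.52), 11 rose and 7 fell in Vanillin minus Sham (median -0.07), and 15 rose and 4 fell in Vanillin minus Mock (median 0.35). Among these, Fcgr1 averaged under 50 in Mock only and Lrp2 in Vanillin only. Fpr2, a receptor for serum amyloid A, rose by 2.07 and by 0.50, as did its relative Fpr1 (2.0 and 0.65). C3ar1, the receptor for the C3a fragment of C3, rose by 1.42 and 0.30. The Fc receptors that also bind pentraxins were among the risers, with Fcgr4 at 3.0 and then -0.16, Fcgr3 at 1.49 and 0.39 and Fcgr2b at 1.31 and 0.45. Slc22a17, a lipocalin-2 receptor, instead fell by 1.27 and rose by 0.71. The probes of Cd36 disagreed: the brighter, which is the one counted, was at 1.195 and then -0.58, and the dimmer at -2.88 and then 2.385.

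Around C3, 15 of the 24 other complement genes measured rose and 4 fell in Sham minus Mock (median 0.64). In Vanillin minus Sham 5 rose and 7 fell (median 0.02), and in Vanillin minus Mock 14 rose and 4 fell (median 0.27). Factor B (Cfb), which pairs with C3b in the alternative pathway, rose by 0.73 and fell by 0.73 (SE 0.048 each), and its mean intensity was 14051 in Mock, 23351 in Sham and 14087 in Vanillin. Clusterin (Clu) rose by 0.85 and fell by 0.56, and C2 rose by 0.89 and fell by 0.48. Factor I (Cfi), which inactivates C3b, rose by 2.36 and fell by 0.52. The C1q chain C1qa rose by 1.17 and was not called with vanillin at -0.09 (SE 0.063). C1qc rose by 0.91 and 0.20, and Cd55, which speeds the decay of C3 convertases, by 0.74 and 0.26. Factor D (Cfd), the protease that cleaves factor B and is secreted by fat cells, fell by 7.06 and rose by 6.97, and Cd59a, a shield against complement, fell by 1.10 and rose by 0.57.

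Of 21 other positive acute-phase genes measured, 8 rose and 4 fell in Sham minus Mock (median 0.01), 5 rose and 3 fell in Vanillin minus Sham (median -0.002), and 10 rose and 3 fell in Vanillin minus Mock (median -0.001). The Sham minus Mock counts are near the shares of all probes (36.5% higher, 23.2% lower). Serpina3n, a serine protease inhibitor made in many tissues, rose by 2.54 and by 0.31, and its relative Serpina3g rose by 1.95 and fell by 0.47. The endotoxin co-receptor Cd14 rose by 2.06 and 0.57, and S100a9, a subunit of calprotectin, by 1.16 and 0.66. S100a8, the other subunit, instead fell by 1.19 in Sham minus Mock (SE 0.085) and was not called with vanillin at -0.01 (SE 0.085). Its mean intensity was 194 in Mock, 76.0 in Sham and 75.1 in Vanillin. The haemopexin gene Hpx was not called, at -0.10 (SE 0.079) and 0.06 (SE 0.079). Of the 21 genes, 4 (Fgb, Fgg, Apcs and Saa4) were under 50 in each group, with Saa4 averaging 14.8 in Sham. Other genes made mainly by the liver were above 50 in each group by their brightest probe, among them Crp and Fga. That probe averaged 201.4 in Mock, 159 in Sham and 174 in Vanillin for Crp, and 126, 127 and 109 in that order for Fga. A second Crp probe averaged only 26.6, 18.8 and 26.3, and the group means of the other Fga probes ranged from 2.2 to 53.4. Il22 and Orm2 are not analysed here.

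Cp, Hp and Lcn2 all bear on iron or copper. Of 16 genes of iron and copper handling, 9 rose and 4 fell in Sham minus Mock (median 0.31), 4 rose and 3 fell in Vanillin minus Sham (median 4.9e-05), and 8 rose and 4 fell in Vanillin minus Mock (median 0.27). Slc11a1, a metal pump of phagocytes, rose by 1.81 and 0.15, while lactoferrin (Ltf) fell by 2.66 and rose by 0.60. The copper importer Slc31a1 rose by 0.85 and was not called at -0.18 (SE 0.086). The ferritin light chain gene Ftl1 rose by 1.20 and fell by 0.59, Ireb2, a sensor of cell iron, rose by 0.82 and was not called with vanillin at -0.10 (SE 0.050), and transferrin (Trf) was not called in Sham at -0.13 and rose by 0.28 with vanillin. Hamp2, a hepcidin gene that is also on the list before this one, fell by 0.77 in Sham and by 0.70 more with vanillin, and the haem-degrading enzyme gene Hmox1 fell by 0.89 and rose by 0.42.

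**Figure D4:**
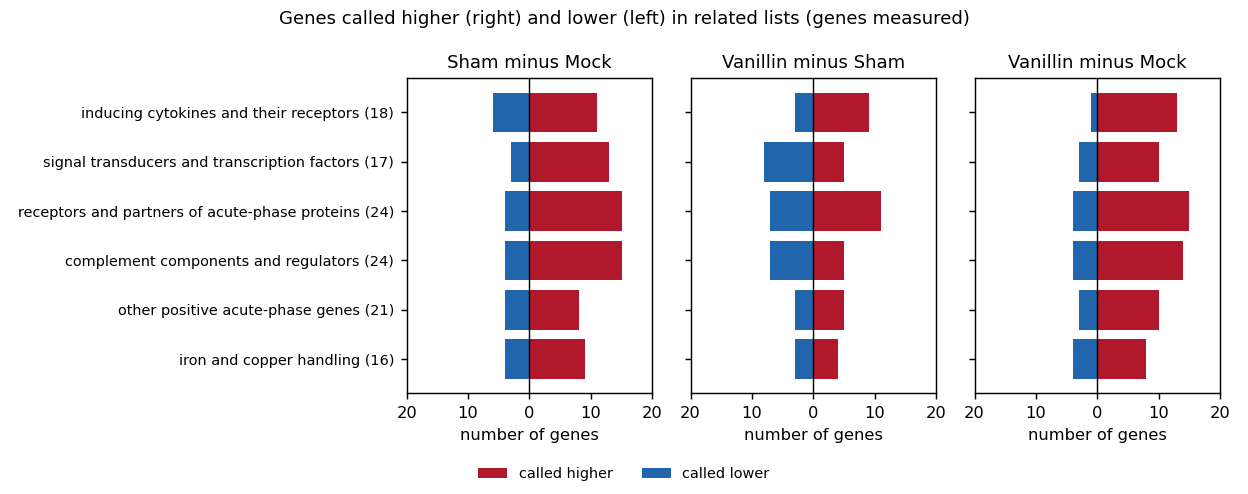
Number of genes called higher (bars to the right) and lower (bars to the left) in 6 lists of genes related to the acute-phase response, for the 3 comparisons, with the number of genes measured after each name. In Sham minus Mock each list has more genes higher than lower, as have all probes (36.5% higher, 23.2% lower). In Vanillin minus Sham the signal transducers and the complement genes have more lower than higher (8 against 5 and 7 against 5), as again have all probes (32.2% lower, 15.7% higher).

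The probes whose 9 values lay nearest to those of an acute-phase gene were sought among 17872 named probes with a mean intensity of at least 50 in some group, each set relative to its Mock mean on the log2 scale. Nearest to Saa3 were Tnfsf11, the cytokine RANKL (distance 0.199), the transporter Slc4a11 (0.228) and 2810408M09RIK (0.251). Nearest to Lcn2 were the adaptor Sla (0.226) and the necroptosis kinase Ripk3 (0.237), and nearest to C3 the mitosis genes Troap (0.17) and Cenph (0.18). The search also returned Fcrla for Lcn2 and Mex3b for C3, but these averaged under 50 in Mock and entered only through the groups where they were high, so no distance is given for them. The same search for Orm1, Hp and Lrg1 was chosen after their values were seen. For Orm1 it returned Sec14l4 (0.542) and also Lor and Dmkn, genes of cornifying epithelium. Dmkn in Mock and Vanillin and Lor in Vanillin read close to the highest value any probe reached, so no distance or order is given for them. It gave Gpx3, B3galt2 and Pcdh7 for Hp (0.324, 0.366 and 0.366) and Mpp2, Selplg and Phlda2 for Lrg1 (0.166, 0.213 and 0.24). These distances describe 9 arrays in 3 groups, which any gene with the same group means would match.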

How the data were processed

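The authors deposited 1 table with the intensity of 26423 probes on 9 arrays. Amplified RNA carried Cy5, per the labels' protocols, and the submitters' processing notes name limma without its role. How spots were scanned, corrected for background or filtered is not given in the sources used here. In the deposited intensity values, 3 to 14 probes of each array were negative, as after background subtraction, and the distributions were nearly equal (sorted log2 values of the arrays differ by at most 0.109). The highest value per array was near 65509, above every acute-phase probe.

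Platform symbols (1 each for 20377 probes, none for 6046) were updated through RefSeq where a single gene was possible (2126 probes). Negative values were set to 0 and log2(value + 16) was fitted with 3 group means over all 9 arrays in limma 3.58.1 (R 4.3.3; lmFit, eBayes, two-sided), checked on simulated data, with 6 residual and 2.69 prior degrees of freedom. Benjamini-Hochberg adjustment ran over all probes. The number of arrays limits the precision. The 95% intervals are limma's.

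The 10 genes, the 6 related lists and the 10 cell type marker lists were chosen with earlier results of these data known. In lists a gene is given by its brightest probe, and named are up to 4 called genes with the smallest p per comparison and a fixed set of regulators, receptors and acute-phase genes; other names were chosen after their values were seen. Deviations from group means of same-numbered arrays correlated at 0.169, 0.126 and 0.201 between Sham and Vanillin, and at -0.288 to -0.0162 between Mock and the others. Arrays with different numbers were not compared, so these values cannot show whether the numbers pair arrays. No label gives a reason for pairing. Figures were drawn with matplotlib 3.10.9.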

Additional observations from a re-analysis of the deposited data

How the results depend on the processing

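Each of the 27 results of an acute-phase probe (9 probes in 3 comparisons) was recomputed with pseudocounts of 1 and 64, on the 6 arrays of a comparison alone, leaving out the 30% of probes that were dimmest, with array weights, after a further quantile normalization, after centring on the median, with an intensity trend, with the replicate number as a block, and without each array in turn. A block fitted to only the 6 arrays compared was added after seeing the data. No direction changed. The calls that were lost are those of Saa3 in Vanillin minus Sham and of the dimmer Cp probe in Vanillin minus Mock, with the values given above, and the replicate block changed no other call. With the replicate block, Orm1 changed by -5.22 and 5.44 in Sham minus Mock and Vanillin minus Sham, as without it. The range of Orm1 in Sham minus Mock was -5.34 to -4.91 over all alternatives. Without 1 array, the number of probes called ranged from 14265 to 16222 in Sham minus Mock, from 10802 to 12752 in Vanillin minus Sham and from 11679 to 13648 in Vanillin minus Mock, and under every alternative it stayed within 1.5 times the main count. Signal over background limits the dim values, among them Orm1 in Sham, where pseudocounts of 1 and 64 gave -5.34 and -4.91 in Sham minus Mock.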

Other observations

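No list was made of the plasma proteins that fall in an acute-phase response, but some stand on other lists, among them albumin, transferrin, Ahsg and transthyretin (Ttr). The mean intensity of Ttr was 3072 in Mock, 2387 in Sham and 1104 in Vanillin, and it fell by 0.37 in Sham minus Mock and by 1.10 in Vanillin minus Sham. The enzymes Cps1 and Tat, also hepatocyte markers, rose by 0.72 and 1.07 in Sham minus Mock and fell by 1.23 and 0.82 in Vanillin minus Sham.

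Of 13 mature colonocyte markers, 5 rose and 3 fell in Sham minus Mock (median 0.05), and 0 rose and 12 fell in Vanillin minus Sham (median -0.49). Their Sham minus Mock counts are close to the shares of all probes (36.5% higher, 23.2% lower). Of 10 goblet cell markers, 6 rose and 1 fell in Sham minus Mock (median 0.31), and 0 rose and 6 fell in Vanillin minus Sham (median -0.43), with Zg16 at -0.88. Fibroblast and matrix markers (12 measured) had 5 higher and 5 lower in Sham minus Mock and 8 higher and 0 lower in Vanillin minus Sham. Smooth muscle markers (5 measured) had 0 higher and 5 lower, then 4 higher and 0 lower. Endothelial markers (12 measured) had 3 higher and 4 lower, then 5 higher and 0 lower. The part of these cells in the acute-phase values was not tested.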
